A study of Mus musculus with 4 samples.

Results

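The C1q-like proteins C1ql1, C1ql2, C1ql3 and C1ql4 and the receptor Adgrb3 were followed in messenger RNA from Stra8 knockout (KO) and wild-type (WT) mouse brain. The 5 genes were taken by name, and all 5 were found among the 55414 genes counted. The data are 2 WT and 2 KO bulk libraries. The sample labels give brain as the tissue. The series design gives a narrower source, hippocampal cells sorted for fluorescence from animals that, in both genotypes, bore the pStra8-GFP reporter (green fluorescent protein under the promoter of Stra8). Stra8 is best known for starting meiosis in germ cells. The sources used here leave out sex, age, the kind of knockout allele and how many animals went into a library, so p-values measure the spread between these libraries, which may be technical.

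C1q-like proteins are secreted by neurons and resemble the globular part of complement C1q. They assemble into multimers in the synaptic cleft and bind Adgrb3 (also called BAI3), an adhesion G protein-coupled receptor on the receiving neuron. C1ql2 and C1ql3 are known as products of dentate granule cells, whose mossy fibres synapse on CA3 pyramidal cells, where these proteins help to place kainate-type glutamate receptors. C1ql1 is known as the signal that climbing fibres from the inferior olive give to Purkinje cells, and oligodendrocyte precursors also transcribe it. C1ql4 is the member least associated with brain.

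The ligands are close relatives, so their coding sequences were compared to see whether a read of one could be taken for another. In GENCODE M21 transcripts the coding sequence was 861 bases in C1ql2, 765 in C1ql3, 774 in C1ql1 and 714 in C1ql4. Identity over aligned bases ran from 72.4% between C1ql3 and C1ql4 to 76.0% between C1ql2 and C1ql3. The stretch below holds the longest run that C1ql2 and C1ql3 share, 38 bases. It covers coding bases 478 to 567 of C1ql2, counted from the first base of the start codon, with the aligned bases of the others. Capitals mark bases that differ from C1ql2.
C1ql2: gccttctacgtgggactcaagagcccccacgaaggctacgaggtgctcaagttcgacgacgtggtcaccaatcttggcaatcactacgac
C1ql3: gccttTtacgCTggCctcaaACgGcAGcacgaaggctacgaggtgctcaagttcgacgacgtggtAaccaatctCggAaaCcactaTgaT
C1ql1: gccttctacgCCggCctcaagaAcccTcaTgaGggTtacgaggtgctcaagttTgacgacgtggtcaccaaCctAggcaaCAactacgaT
C1ql4: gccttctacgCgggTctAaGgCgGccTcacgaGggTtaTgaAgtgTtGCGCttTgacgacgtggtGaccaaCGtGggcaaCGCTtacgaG
In these 90 bases C1ql3 differed from C1ql2 at 15 positions, C1ql1 at 14 and C1ql4 at 26. Across whole transcripts no stretch of 101 bases, which is 1 read of the length in the labels' protocols, was shared by any pair of ligands. The longest shared run of any other pair was 29 bases, between C1ql1 and C1ql4.

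The libraries held 71097417 to 82172740 reads each. Stra8 itself, the targeted gene, had 5 and 1 reads in the WT libraries and 7 and 4 in the KO libraries, so its level does not check the genotype labels. The libraries also held genes listed as markers of other regions than the hippocampus. All 8 listed genes of cerebellar granule cells had at least 2.27 CPM (counts-per-million, reads scaled to the effective library size) in every library. Their summed level was 417.8 and 419.9 CPM in WT and 281.6 and 282.7 CPM in KO. Some of the 8, such as Neurod1, are not exclusive to the cerebellum, so this sum does not measure cerebellar RNA alone. Fat2, of the same list, had 43.3 and 45.7 CPM in WT and 19.8 and 19.6 CPM in KO. The Y-linked gene Ddx3y had 27.9 and 28.1 CPM in WT and 11.9 and 11.6 CPM in KO. Xist, the RNA that silences an X chromosome in female cells, had 297 and 287 CPM in WT and 441 and 420 CPM in KO. All 4 Y-linked genes read were called lower in KO and Xist was called higher. Every library held both Xist and Y-linked RNA, so RNA of both sexes appears to be mixed in each. Sex-linked RNA thus differed along with genotype, and the part of sex in the differences below was not tested. In bulk RNA fewer cells of a type and less RNA per cell cannot be told apart.

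Among the 5 genes, C1ql2 fell to 0.647 of its WT level in the KO libraries, C1ql3 fell to 0.924, and C1ql1, C1ql4 and Adgrb3 did not pass the test. Thus 2 of the 5 were called lower, a call being a p under 0.05 in the quasi-likelihood test of edgeR after Benjamini-Hochberg adjustment over all genes tested. Across the 21592 genes tested, 6.53% were called, 3.19% lower and 3.35% higher. The genotypes did not overlap in CPM for 4 of the 5 genes, as for 45.7% of all tested genes.

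**Figure D1:**
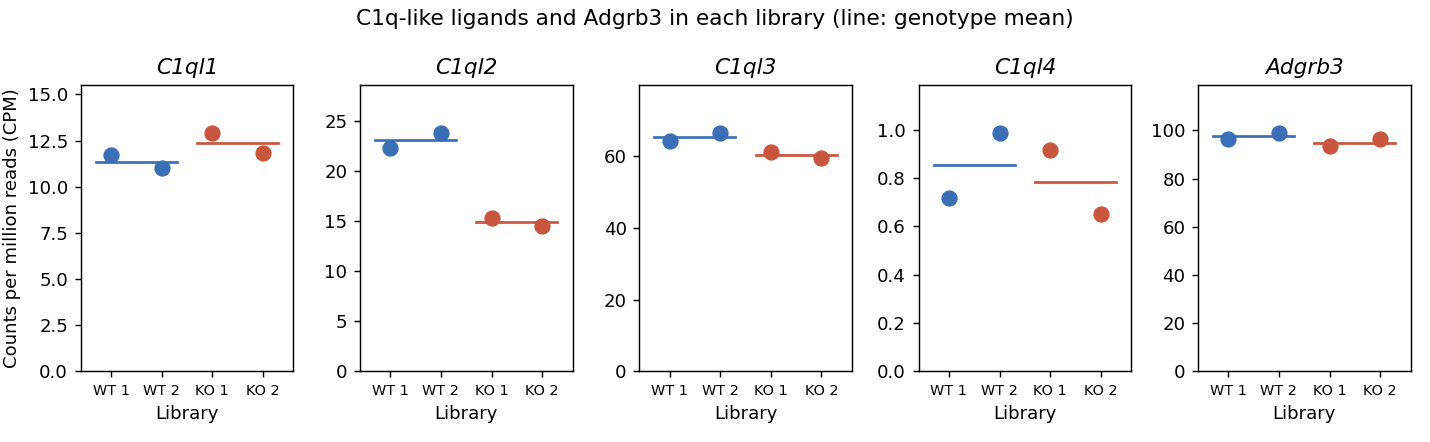
Level of each gene in every library, in CPM, on an axis that starts at 0 and differs between panels. Points are the 2 WT and 2 KO libraries and lines are genotype means. Both KO points of C1ql2 lie well below both WT points, whereas the points of C1ql4 interleave.

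C1ql2 (ENSMUSG00000036907), one of the pair of mossy fibre ligands, had 22.3 and 23.8 CPM in WT libraries 1 and 2, from 1799 and 1954 reads. It had 15.3 and 14.5 CPM in KO libraries 1 and 2, from 1255 and 1025 reads. Both KO libraries lay below both WT libraries, and the gap between the genotypes was several times the difference within either. The means were 23.1 ± 1.08 CPM in WT and 14.9 ± 0.609 CPM in KO (SD, n = 2 libraries). The level decreased by 35.3%. On the log2 scale the estimate was -0.63 (SE 0.060, 95% interval -0.75 to -0.51, edgeR adjusted p = 7.52e-08). Of all 21592 tested genes 743 (C1ql2 included) had a log2 fold change this low or lower, and 31 of these were among the 11908 genes whose mean reached 5 CPM. The call held with each library left out, where the log2 fold change ran from -0.67 to -0.58.

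C1ql3 (ENSMUSG00000049630), the other mossy fibre ligand, which neocortical neurons also make, fell by much less. Its level was 64.2 and 66.6 CPM in WT and 61.1 and 59.7 CPM in KO. The groups did not overlap, but the distance between the nearest libraries, WT 1 and KO 1, was close to the distance between the WT libraries. Its means were 65.4 ± 1.70 and 60.4 ± 1.04 CPM (SD, n = 2), so the level decreased by 7.64%. The log2 fold change was -0.11 (SE 0.032, 95% interval -0.18 to -0.048, edgeR adjusted p = 0.0298). This call was lost when WT 2 or KO 2 was left out, where the log2 fold change was -0.088 and -0.097. The SE also rose with fewer libraries, to 0.043 and 0.039, and the part of each in the loss was not tested. DESeq2 on all 4 libraries gave an adjusted p of 0.0889. In the GENCODE M21 annotation (GRCm38) the exons of Gm37811 and Gm37824 overlap those of C1ql3 on the opposite strand. The sources used here do not say whether the counting used strand, so reads of the overlap cannot be told apart. Gm37811 had 1.36, 1.304, 1.07 and 0.917 CPM in WT 1, WT 2, KO 1 and KO 2, a small fraction of the C1ql3 level, and Gm37824 had at most 5 reads.

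C1ql1 (ENSMUSG00000045532), the climbing fibre ligand, moved the other way without passing the test. WT levels were 11.7 and 11.02 CPM, and KO levels were 12.9 and 11.8 CPM. KO library 2 stood only just above WT library 1. The log2 fold change was 0.13 (SE 0.074, 95% interval -0.027 to 0.28, edgeR adjusted p = 0.416), so a rise of up to 1.21-fold lies within the interval. With 1 library left out at a time the log2 fold change ran from 0.057 to 0.19.

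C1ql4 (ENSMUSG00000001076) was near the lower end of what these libraries could measure. It had 58 and 81 reads in the WT libraries and 75 and 46 in the KO libraries. As shares of all reads these were 0.722 (exact 95% binomial interval 0.548 to 0.934) and 0.989 (0.785 to 1.23) CPM in WT, and 0.913 (0.718 to 1.14) and 0.647 (0.474 to 0.863) CPM in KO. The WT and KO libraries interleaved. These intervals cover counting error only, and are too narrow because both mates of a pair appear to have been counted. The log2 fold change was -0.12 (SE 0.28, 95% interval -0.69 to 0.46, edgeR adjusted p = 0.903), and its sign turned when WT library 2 or KO library 2 was left out (0.13 and 0.10). A change of the size seen in C1ql2 was therefore not distinguishable from none for C1ql4 at this depth.

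Adgrb3 (ENSMUSG00000033569), the receptor, stood at 96.5 and 99.0 CPM in WT and at 93.6 and 96.3 CPM in KO. WT library 1 and KO library 2 were nearly equal. Its log2 fold change was -0.043 (SE 0.027, 95% interval -0.098 to 0.012, edgeR adjusted p = 0.455). The lower end of that interval corresponds to 0.934 of the WT level, well short of the decrease in C1ql2.

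Levels of different genes were compared per kilobase of annotated exon (RPKM, from GENCODE M21 exon lengths of 1.473 to 2.535 kb for the ligands). C1ql3 was the most abundant ligand on this scale, at 25.3 and 26.3 RPKM in WT and 24.1 and 23.5 RPKM in KO. In WT, C1ql2 came next at 11.1 and 11.9 RPKM, above C1ql1 at 7.94 and 7.48 RPKM. In KO this order turned, with C1ql1 at 8.78 and 8.02 RPKM and C1ql2 at 7.66 and 7.23 RPKM. The means, 8.40 ± 0.538 and 7.45 ± 0.305 RPKM (SD, n = 2), were within 1 RPKM of each other. The turn depends on the annotated exon lengths, since in CPM C1ql2 stayed above C1ql1 in both KO libraries (15.3 and 14.5 against 12.9 and 11.8). C1ql4 stayed between 0.440 and 0.670 RPKM in all 4 libraries. Adgrb3, with 18.559 kb of exon over its transcripts, had 5.04 to 5.34 RPKM, a value lowered by any exons that most of its transcripts skip.

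**Figure D2:**
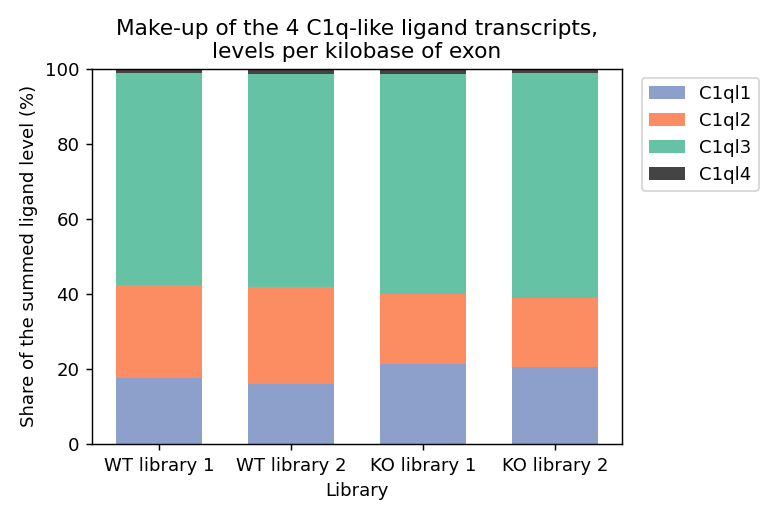
Share of each ligand in the summed level of the 4 ligands in each library, in percent, from levels per kilobase of exon. The C1ql2 band is 24.8% and 25.7% in the WT libraries and 18.6% and 18.4% in the KO libraries, and C1ql3 is the tallest band of every bar.

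As a share of the 4 ligands per kilobase, C1ql2 was 24.8% and 25.7% in WT and 18.6% and 18.4% in KO. The share of C1ql1 was 17.7% and 16.1% in WT and 21.3% and 20.4% in KO, and that of C1ql3 was 56.4% and 56.7% against 58.6% and 60.005%. Shares add up to a fixed total, so the rise of one follows in part from the fall of another.

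Ratios of read counts within a library do not depend on how libraries are scaled, and 4 were formed. The log2 ratio of C1ql2 to C1ql3 was -1.53 and -1.48 in WT and -1.996 and -2.04 in KO. The genotypes differed by -0.52, against SDs of 0.030 and 0.034, so the members of the mossy fibre pair did not fall by the same amount in these libraries. The ratio of C1ql1 to C1ql3 was higher in KO by 0.24, at -2.24 and -2.34 against -2.46 and -2.60. That of C1ql3 to Adgrb3 was lower in KO, with a difference of -0.073, at -0.61 and -0.69 against -0.59 and -0.57. With 2 libraries against 2, a two-sided exact permutation test cannot go below p = 0.333, and each of the 4 ratios, that to Prox1 given below included, had this p (0.333 after Benjamini-Hochberg adjustment).

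The presynaptic and postsynaptic partners of the mossy fibre ligands were at similar levels in both genotypes, with 1 of 5 called. Grik4, the high-affinity kainate receptor subunit GluK4 of CA3 cells, had 34.8 and 34.7 CPM in WT and 31.5 and 30.5 CPM in KO, with KO below WT in both. It fell by 0.16 on the log2 scale (SE 0.043, edgeR adjusted p = 0.0193). The call was lost when WT 1, WT 2 or KO 2 was left out (edgeR adjusted p = 0.101, 0.084 and 0.119) and in DESeq2 (0.058). Grik2, which encodes the main kainate subunit GluK2, had 82.3 and 80.3 CPM in WT and 84.95 and 78.6 CPM in KO. Grik5, the GluK5 subunit, had a log2 fold change of 0.014. Nrxn2 and Nrxn3, presynaptic neurexins, had log2 fold changes of 0.029 and 0.0079 (edgeR adjusted p = 0.269 and 0.891). The median of the 5 was 0.010, beside -0.0004 over all genes tested.

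The relatives of the receptor and the Elmo, Dock and Rac signalling genes known to act behind BAI receptors changed little, with 1 of 6 called. Adgrb1 rose from 663 and 674 CPM to 690 and 695 CPM, 0.051 on the log2 scale (SE 0.014, edgeR adjusted p = 0.0269). This call was lost when WT 1 or KO 2 was left out (edgeR adjusted p = 0.198 and 0.0716) and with scaling by library size alone (0.0789). Adgrb2 had 565 and 569 CPM in WT and 569 and 566 CPM in KO. Elmo1, Elmo2, Dock1 and Rac1 had log2 fold changes of 0.068, -0.059, -0.026 and 0.029, and the median of the 6 was 0.015.

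**Figure D3:**
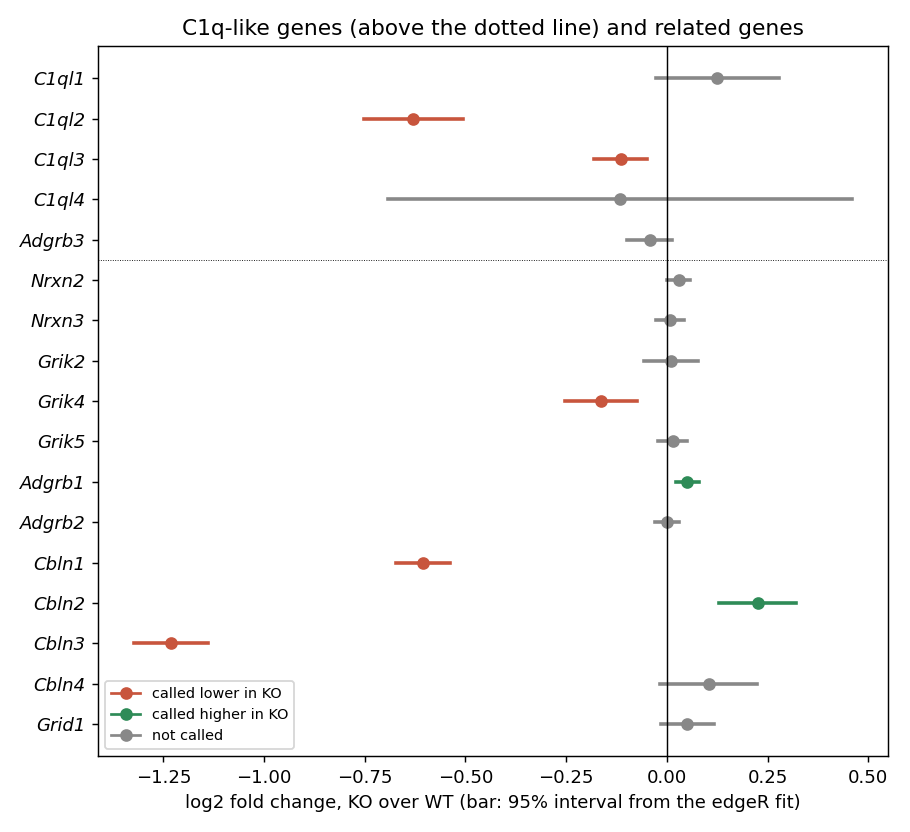
Log2 fold change of KO over WT for the 5 genes (above the dotted line) and for neurexins, kainate subunits, BAI receptors, cerebellins and Grid1. Points are estimates and bars are 95% intervals of the edgeR fit. C1ql2, Cbln1 and Cbln3 lie far to the left of 0, while Nrxn2, Nrxn3, Grik2 and Grik5 sit near 0 and the wide bar of C1ql4 spans 0.

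Cerebellins are the C1q family proteins that bridge neurexins to delta glutamate receptors, and here 2 of 5 genes (Cbln1 to Cbln4 and the delta receptor gene Grid1) were called lower and 1 higher. Cbln3 and Cbln1, of cerebellar granule cells, fell by 1.23 and 0.61 on the log2 scale (edgeR adjusted p = 1.79e-15 and 2.70e-12). Cbln2, which cortex and thalamus transcribe, rose from 27.3 and 26.9 CPM to 30.9 and 32.5 CPM (log2 fold change 0.23, edgeR adjusted p = 0.00251). The median of the 5 was 0.050, that of Grid1, although the lower calls were the larger ones. Of the complement C1q chains and C1q-TNF related genes, 11 of 14 were tested and 0 were called by edgeR, DESeq2 or limma-trend, with 0 at an unadjusted p under 0.05. C1qa, a complement chain made by microglia, had 35.7 and 38.3 CPM in WT and 37.7 and 38.9 CPM in KO.

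C1ql2 was next set beside other genes that mark the dentate granule cell. Of 14 such genes 8 were called lower and 1 higher, beside 3.19% and 3.35% over all genes tested, shares not matched for abundance. The median log2 fold change of the 14 was -0.20. Their summed level was 640.0 and 632.5 CPM in WT and 582.6 and 574.9 CPM in KO. C1ql2 had a lower log2 fold change than 10 of them and a higher one than Tdo2 (-1.16), Il16 (-0.96), Dsp (-0.84) and Lct (-0.78). Prox1, the transcription factor of granule cell identity, had 56.4 and 56.8 CPM in WT and 47.6 and 45.96 CPM in KO (log2 fold change -0.27, SE 0.035, edgeR adjusted p = 6.44e-06). The log2 ratio of C1ql2 to Prox1 was -1.34 and -1.25 in WT and -1.63 and -1.67 in KO, lower in KO by 0.36. Npnt, another gene of the list, rose by 0.23. Calb1, which also marks Purkinje cells and is counted in both lists, had 130.2 and 128.2 CPM in WT and 116.9 and 112.5 CPM in KO, and was 1 of the 8 called lower. In the CA3 list, the cells that mossy fibres contact, the summed level was 521.8 and 523.5 CPM in WT and 518.7 and 522.2 CPM in KO, and the median log2 fold change was -0.055. There 2 of 6 genes were called lower, Cpne4 and Bok, but DESeq2 called 0 and the number called was 0 or 1 with any library left out. The part of these marker genes in the C1ql2 difference was not tested.

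Marker genes of other regions and cell types moved in both directions. Shares called over all genes tested, 3.19% lower and 3.35% higher, were not matched for abundance, which affects how small a change can be called. All 8 cerebellar granule cell genes and all 6 Purkinje cell genes were called lower, with medians of -0.84 and -0.54. The Purkinje sums were 992 and 988 CPM in WT and 836 and 840.5 CPM in KO. Most of these sums was Itpr1, at 613 and 616 CPM in WT and 538 and 548 CPM in KO (log2 fold change -0.18). The sums therefore hide larger decreases such as that of Pcp2 (-1.36). Of 9 neocortical projection neuron genes, 5 were called higher (median 0.13), among them Cux2 and Lamp5 (0.21 and 0.20), and their sums were 724.1 and 735.2 CPM in WT and 797.6 and 799.2 CPM in KO. All 9 striatal genes were called higher, with a median of 0.30, as were all 8 oligodendrocyte genes, with a median of 0.089. Of 7 choroid plexus genes 4 were called lower (median -0.42), and of 7 astrocyte genes 3 (median -0.049). Of 4 anterior pituitary genes tested 3 were called lower (median -1.06), with sums of 61.4 and 61.7 CPM in WT and 29.4 and 29.1 CPM in KO. Of 6 CA1 pyramidal genes 2 were called lower and 1 higher (median -0.059). Of 6 microglial genes 0 were called by edgeR, DESeq2 or limma-trend, with 1 at an unadjusted p under 0.05. C1ql3 fell slightly in libraries where dentate markers were lower and neocortical markers higher, and the part of either in its level was not tested.

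**Figure D4:**
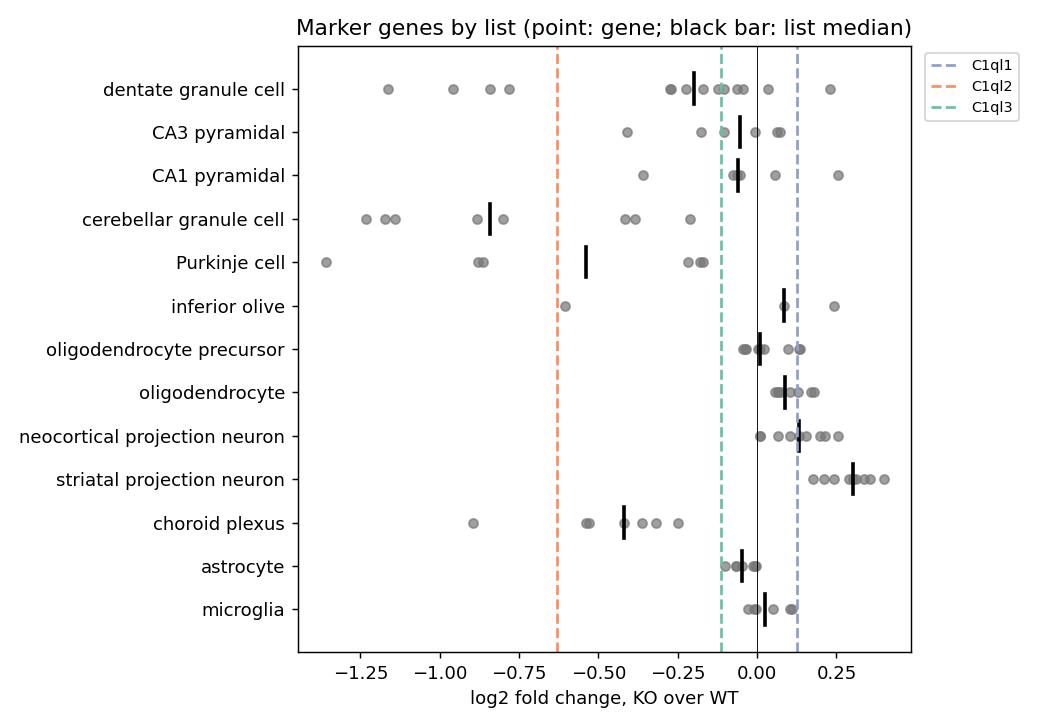
Log2 fold change of KO over WT for marker genes, by list. Each point is a gene, black bars are list medians, and dashed lines give C1ql1, C1ql2 and C1ql3. The C1ql2 line, at -0.63, lies left of 10 of the 14 dentate granule cell genes and within the range of the cerebellar granule cell genes.

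For C1ql1, the inferior olive and oligodendrocyte precursors were read. Htr5b, a serotonin receptor gene of the inferior olive, had 2.52 and 2.47 CPM in WT and 1.72 and 1.55 CPM in KO (log2 fold change -0.60, edgeR adjusted p = 0.0241). The call was lost when WT 1, WT 2 or KO 2 was left out (edgeR adjusted p = 0.0865, 0.0587 and 0.103) and in DESeq2 (0.0906). Foxp2, which several brain regions transcribe, rose by 0.24, and Pou4f1 had a log2 fold change of 0.084. Of 9 oligodendrocyte precursor genes 2 were called higher, Gpr17 and Sox10 (0.13 and 0.14), the median was 0.010, and the sums were 567.8 and 575.0 CPM in WT and 595.9 and 586.7 CPM in KO. Pdgfra, the defining receptor of these cells, had 59.8 and 60.8 CPM in WT and 58.9 and 58.1 CPM in KO. The part of these genes in the C1ql1 level was not tested.

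The genes most like each member were those of similar abundance (mean CPM within a factor of 2) with the smallest distance between log2 CPM values centred on the gene, over the 4 libraries. For C1ql2 they were Homer3, Hif3a and Cep76 among 4517 genes, at distances of 0.097, 0.098 and 0.12. Homer3 had 36.8 and 36.1 CPM in WT and 25.2 and 23.2 CPM in KO. For C1ql3 they were Nt5dc3, Jmy and Mxd4 at 0.012 to 0.014, for C1ql1 Hccs, Zfp13 and Pigh at 0.014 to 0.024, for Adgrb3 Atf7ip, Setdb1 and Per1 at 0.0018 to 0.012, and for C1ql4 Stard6, Tgfbr3l and Slc39a4 at 0.088 to 0.14. Likeness over 4 libraries is a description of these libraries only.

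The promoter of C1ql2 is shown because it belongs to the member that changed most. RefSeq promoter sequences were matched for C1ql2, C1ql3, C1ql4 and Adgrb3, and C1ql1 is named only. The RefSeq windows of C1ql3 and C1ql4 lie wholly and partly inside the GENCODE M21 genes, whose starts differ from those of RefSeq, so their motifs and base content are not described. The 250 bases before the C1ql2 start, GRCm38.p6 chr1:120340332-120340581 on the plus strand, were searched on both strands for 4 motifs. These were CNCCTCAG, a motif associated with STRA8 in germ cells, the E-box CACGTG, the cAMP response element TGACGTCA and the GC box GGGCGG. Capitals would mark a match.
C1ql2 promoter: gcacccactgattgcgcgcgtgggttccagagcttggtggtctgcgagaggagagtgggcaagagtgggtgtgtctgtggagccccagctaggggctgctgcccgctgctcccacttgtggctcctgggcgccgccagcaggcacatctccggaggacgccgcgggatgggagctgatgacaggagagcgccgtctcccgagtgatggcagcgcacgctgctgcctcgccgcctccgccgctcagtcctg
None of the 4 was found in this window, which says only that these letters are not in it. Of 32851 promoter windows of this length, 6.42% held CNCCTCAG, 6.02% CACGTG, 1.55% TGACGTCA and 32.7% the GC box. The GC box occurred in its reverse form at 2 places in the window of Adgrb3. G and C made up 68.8% of the C1ql2 window and 59.2% of that of Adgrb3, beside a median of 52.4% over all windows.

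C1ql2 was called in 13 of 13 other tests, with log2 fold changes from -0.67 to -0.58 and adjusted p-values of at most 9.01e-08. C1ql3 kept its direction in all 13 and was called in 10, and C1ql1 and Adgrb3 kept theirs and were called in 0 by edgeR, DESeq2 or limma-trend. The unadjusted p-values of C1ql1 and Adgrb3 in edgeR were 0.103 and 0.121.

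**Figure D5:**
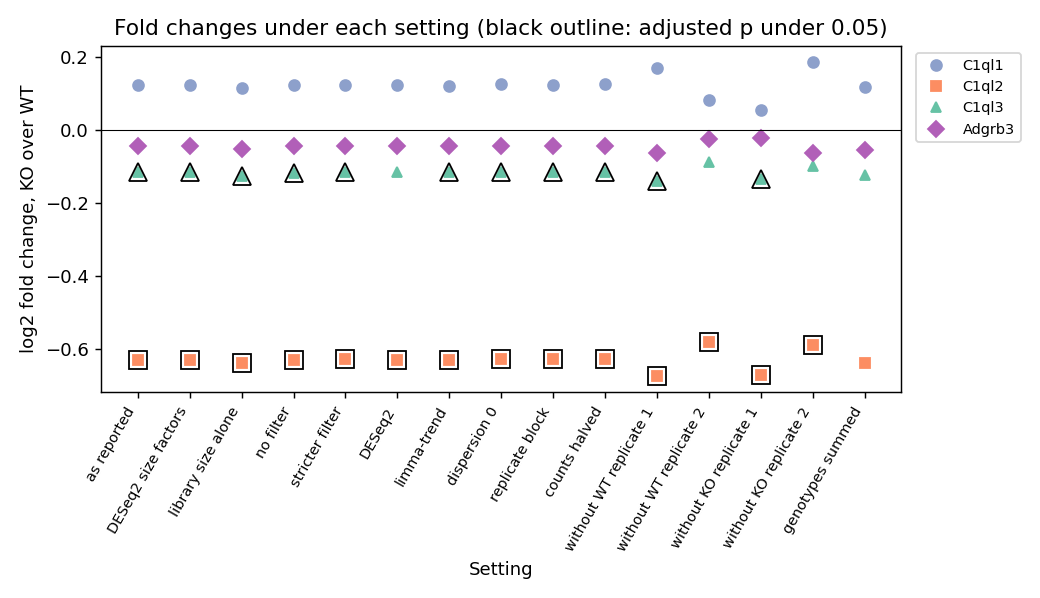
Log2 fold change of KO over WT for C1ql1, C1ql2, C1ql3 and Adgrb3 under each setting on the horizontal axis. Black outlines mark an adjusted p under 0.05. C1ql2 lies between -0.67 and -0.58 with an outline under every setting that has a test, and C1ql3 loses its outline with DESeq2, without WT replicate 2 and without KO replicate 2.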

How the data were processed

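Libraries were made strand-selectively from TRIzol RNA after oligo dT capture and read in pairs, per the labels' protocols. The authors deposited raw read counts per gene, without normalization. STAR 2.6.1c, featureCounts, FastQC and DESeq2 and the build GRCm39 are named, without roles, per the submitters' processing notes. Of counts between 1 and 20, 72.8% to 74.3% were even, so both mates appear to be counted. The KO column names carry a suffix that the WT ones lack.

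Counts were tested across all genes in R 4.3.3 with edgeR 4.0.16 (filterByExpr with minimum count 10, TMM, glmQLFit and glmQLFTest on genotype). CPM values use TMM-scaled library sizes, and SE is the log2 fold change over the root of F. Alternatives were DESeq2 1.42.0, limma 3.58.1 (prior count 2), other scalings and filters, dispersion 0, halved counts, the replicate block and each library left out. The procedure was tested on simulated data. Between libraries of 1 genotype the variance of counts was 2.50 (WT) and 2.58 (KO) times the counting value, or 1.27 and 1.32 times with counts halved. They were kept as separate samples, although this spread does not tell separate animals from technical replicates. Symbols matched 52081 identifiers. A few listed genes are not reported here and were left out of their lists. The members and lists were chosen with earlier results of these data known. Genes named were the members, the partners, up to 4 genes of each related list and 2 of each marker list by smallest p, and 3 genes most like each member. Some genes named beyond that rule were chosen after their values were seen. These are Adgrb2, Dock1, Grid1, Lct, Tdo2, Prox1, Npnt, Calb1, Itpr1, Neurod1, Pou4f1 and Pdgfra. Gm37811 and Gm37824 were named for their position.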

Additional observations from a re-analysis of the deposited data

How the results depend on the processing

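The number of genes called higher in KO was 723, and ranged from 521 (DESeq2) to 834 (stricter filter, 50 reads) under the other settings. The number called lower was 688, with a range of 483 to 828. C1ql2 kept its call under every setting with a test. C1ql3 lost its call in DESeq2 (log2 fold change -0.11, adjusted p = 0.0889). With 1 library left out, which assumes that the lone library varies like those of the other genotype, its log2 fold change ranged from -0.14 to -0.088. The value of C1ql4, never called, ranged from -0.39 to 0.13 with 1 library left out and changed sign in 2 of 4 cases. DESeq2 gave no adjusted p for it. The cause of these changes was not tested, beyond the smaller number of libraries. With the replicate block the log2 fold changes of C1ql2 and C1ql3 were -0.63 and -0.11 and 818 and 772 genes were called higher and lower, so it changed no call of a member. The numbers give no sign of pairing, with a correlation of 0.016 between the replicate differences of the genotypes. With each genotype counted as 1 sample, a form added after seeing the data that allows no test, C1ql2 was at -0.64. Of 273 list medians under other settings 36 moved by more than the spread between replicates, and of 273 counts of called list members 20 moved by over 1.5 times. None of the 20 values of the ratios moved by more than that spread. Depth limits C1ql4 most, at 46 to 81 reads per library.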

Other observations

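Of 30 synaptic organizer genes outside the C1q family that were tested, 10 were called higher, 2 lower and 18 were not called. Over all genes tested 3.35% were called higher and 3.19% lower. Those shares were not matched for abundance, which affects how small a change can be called. The 30 genes summed to 6879 and 6849 CPM in WT. The median log2 fold change was 0.042, and 0.033 with scaling by library size alone, where 10 were called. The number called was 12 by limma-trend and 10 by DESeq2. The neuronal pentraxins went in opposite directions. Nptx1, a secreted pentraxin that gathers AMPA receptors, had 424 and 432 CPM in WT and 379 and 377 CPM in KO (log2 fold change -0.18, edgeR adjusted p = 1.66e-08). Nptx2, its activity-regulated relative, had 71.2 and 72.7 CPM in WT and 84.2 and 82.6 CPM in KO (log2 fold change 0.21, edgeR adjusted p = 1.51e-05). Clstn1, a calsyntenin of axonal transport, rose by 0.10, and the latrophilin gene Adgrl2 by 0.13 (edgeR adjusted p = 1.05e-05 and 0.00138). These 4 calls held with each library left out.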
